A study of Mus musculus with 4 samples.

Results

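The major histocompatibility locus of the mouse lies on chromosome 17 and was examined here as a set of open chromatin regions in CT26 tumours with and without Sun1. Its members are the accessibility peaks of the Sun1_WT library whose start lies from 33.5 Mb to just under 38 Mb on chromosome 17 (mm10), together with the Sun1_KO peaks that overlap them by at least 1 bp. The rule gave 536 of the 127147 Sun1_WT peaks and 504 of the 134365 Sun1_KO peaks. Joined by overlap, they made 504 regions with a peak in both libraries, out of 113805 such regions in the genome, and 32 regions with a Sun1_WT peak only, for which no ratio between the genotypes was formed. At the window's lower edge, the last peak before it started at 33494641 (1.04 CPM, counts after scaling each class to one equal total, in Sun1_WT tumour nuclei) and the first member at 33503398 (0.727 CPM). At its upper edge, the last member started at 37995421 (6.17 CPM) and the next peak at 38531281 (1.13 CPM).

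CT26 is a BALB/c colon cancer line that grows in mice of its own strain. Wildtype cells of the line (Sun1_WT) or its Sun1 knockout (Sun1_KO) were grown under the skin of the flank in BALB/c mice and harvested on day 14, and nuclei of the dissociated tumours went into a 10x Multiome preparation, in which each nucleus yields both an RNA and an accessibility profile. Sun1 encodes an inner nuclear membrane protein that ties the nuclear interior to the cytoskeleton, and the host mice are not described as carrying any deletion, so myeloid and lymphoid nuclei differ in the tumour they came from and not by a labelled genotype of their own. Each genotype gave 1 RNA and 1 accessibility library, 4 libraries in all. With 1 library per genotype there was no replicate and no test, so differences are described by their size. The labels do not say how many mice a library holds or whether the knockout line was 1 clone. Peaks and genes are on mm10, the genome of another strain, and the class I genes are close relatives of each other, so that values of single class I genes are uncertain.

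Classes of nuclei were set by RNA of marker genes outside the locus, which left 1775 Sun1_WT and 1046 Sun1_KO tumour nuclei, 329 and 298 myeloid nuclei, and 126 and 186 lymphoid nuclei, out of 3345 and 2172 nuclei kept. Summed accessibility counts were 152620000 and 110258916 in tumour nuclei, 8464113 and 7781571 in myeloid nuclei, and 3372584 and 5154854 in lymphoid nuclei. Accessibility at marker genes, which the gates did not use, followed the classes. The tumour marker gene Hmga2 stood at 59.6 and 63.8 CPM in tumour nuclei against 3.07 and 1.29 in myeloid nuclei, the macrophage gene C1qa at 0.754 and 1.11 against 27.4 and 32.1, and the T cell gene Cd3e at 18.7 and 29.9 in lymphoid nuclei against 0.321 and 0.263 in tumour nuclei. Most of the tumour marker RNA came from Hmga2, though the gate required at least 3 different markers. Hmga2 RNA was 3142 CPM in Sun1_WT and 4700 in Sun1_KO tumour nuclei (log2 ratio 0.58, interval 0.57 to 0.59). The part of this difference in which nuclei passed the tumour gate was not tested. Epcam, an epithelial marker, had no UMI in any class of Sun1_WT or in tumour nuclei of Sun1_KO. Sun1 RNA stood at 108 CPM in tumour nuclei of Sun1_WT and at 64.3 CPM in those of Sun1_KO (log2 ratio -0.75, 95% interval -0.84 to -0.66), at 37.1 and 34.5 in myeloid nuclei and at 35.1 and 53.3 in lymphoid nuclei. It was lower but not absent in tumour nuclei labelled Sun1_KO, and the labels do not say which part of the gene was altered, so RNA from outside that part checks nothing. Tumour nuclei carried 105 CPM of RNA from the 18 myeloid markers in Sun1_WT and 127 in Sun1_KO, all 18 detected in both, and 13.4 and 24.8 from the 20 lymphoid markers. They also carried 1403 and 1205 CPM from the 5 fibroblast markers. Mitochondrial UMIs made up a median of 6.80% and 11.5% of a tumour nucleus's UMIs in Sun1_WT and Sun1_KO, 4.43% and 7.78% in myeloid nuclei, and 2.85% and 7.94% in lymphoid nuclei. The part of these differences in the results was not tested.

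The locus holds the genes by which cells show peptides to T cells. Classical class I molecules, encoded by H2-K1 and H2-D1, present peptides made in the cell, which the immunoproteasome cuts and the Tap transporter carries into the endoplasmic reticulum. Class II molecules, encoded by genes such as H2-Aa, H2-Ab1 and H2-Eb1, present peptides from outside and are made mainly by macrophages, dendritic cells and B cells under control of the transactivator Ciita. Class I genes are switched on by interferon and by the transactivator Nlrc5. Between the class II genes and the class I genes from H2-D1 onward lies the class III region with genes for complement factors and cytokines. H2-K1 and H2-K2 lie on the other side of the class II genes. Promoters of both classes carry a module that ends in a Y box, the reversed CCAAT box to which the factor NF-Y binds.

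Promoter sequences of 5 genes are shown because the results turn on them: H2-T23, a non-classical class I gene with lower accessibility in Sun1_KO tumour nuclei, the classical class I genes H2-K1 and H2-D1, open in every class, and the class II genes H2-Aa and H2-Eb1, most open in myeloid nuclei. Each is the 250 bases before the start of transcription in RefSeq (GRCm38.p6, chromosome 17), 5′ to 3′ on the gene's strand, and gives the reference strain and not the alleles of the tumour. Capitals mark matches, on either strand, to the interferon-stimulated response element (GAAA, any 2 bases, GAAA), the Y box ATTGG, the PU.1 motif GAGGAAGT, the AP-1 motif TGANTCA, the CTCF core (CC, any 3 bases, AGG, any 1 base, GGC) and the cyclic AMP response element TGACGTCA.
H2-T23 (chr17:36032702-36032951, minus strand): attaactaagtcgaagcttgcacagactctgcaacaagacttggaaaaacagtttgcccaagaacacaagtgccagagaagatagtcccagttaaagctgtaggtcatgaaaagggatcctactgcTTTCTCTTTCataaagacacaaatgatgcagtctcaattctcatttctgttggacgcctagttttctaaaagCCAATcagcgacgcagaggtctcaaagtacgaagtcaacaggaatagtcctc
H2-K1 (chr17:34000334-34000583, minus strand): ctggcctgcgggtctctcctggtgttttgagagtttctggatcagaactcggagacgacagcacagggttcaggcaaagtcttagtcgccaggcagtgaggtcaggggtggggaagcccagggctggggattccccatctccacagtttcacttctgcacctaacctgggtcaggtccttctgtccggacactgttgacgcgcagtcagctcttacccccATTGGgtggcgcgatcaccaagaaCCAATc
H2-D1 (chr17:35262844-35263093, plus strand): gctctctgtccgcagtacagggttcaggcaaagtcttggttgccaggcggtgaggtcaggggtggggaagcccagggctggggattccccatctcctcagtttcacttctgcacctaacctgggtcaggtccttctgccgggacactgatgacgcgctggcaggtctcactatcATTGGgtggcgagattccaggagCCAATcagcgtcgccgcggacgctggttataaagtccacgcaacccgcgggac
H2-Aa (chr17:34287824-34288073, minus strand): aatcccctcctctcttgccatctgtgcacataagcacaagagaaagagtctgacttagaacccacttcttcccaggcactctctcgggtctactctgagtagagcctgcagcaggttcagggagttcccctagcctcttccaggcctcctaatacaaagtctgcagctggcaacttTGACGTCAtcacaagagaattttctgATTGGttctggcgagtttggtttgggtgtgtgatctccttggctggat
H2-Eb1 (chr17:34305617-34305866, plus strand): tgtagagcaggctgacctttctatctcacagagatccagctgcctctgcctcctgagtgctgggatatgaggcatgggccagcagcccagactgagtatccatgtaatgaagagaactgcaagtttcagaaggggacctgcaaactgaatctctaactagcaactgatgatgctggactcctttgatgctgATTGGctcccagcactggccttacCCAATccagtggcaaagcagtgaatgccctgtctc

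The Y box matched in 33.8% of all 32851 promoters in the table, in 41.2% of the 257 promoters of the window and in 40.8% of the 152 of them that lay in a member region. All 8 class II genes with a promoter in the table held one (H2-Ab1 is not among them), as did both classical class I genes and 9 of 12 non-classical ones. In H2-Eb1 the matches began 59 and 35 bases before the start, and in H2-D1 76 and 53. H2-Aa held a cyclic AMP response element 74 bases before its start, a motif found in 1.55% of all promoters, and a Y box 48 bases before it. The interferon-stimulated response element, found in 2.98% of all promoters, matched in 1 class III gene and in 2 non-classical class I genes, H2-T23 (124 bases before the start, with a Y box 52 bases before it) and H2-T22 (191 bases). A match describes letters and does not show that a factor bound.

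Of the 504 regions, 112 held a promoter, 213 lay inside a gene without one and 179 between genes. Their median width was 876 bp in Sun1_WT and 875 bp in Sun1_KO, and in 475 of them the widths differed by at most 10%. The locus took a smaller share of all accessibility counts in tumour nuclei than in the immune classes of both libraries. In tumour nuclei it was 0.732% and 0.720%, with a log2 ratio (Sun1_KO over Sun1_WT) of -0.02 (95% interval -0.03 to -0.02). In myeloid nuclei it was 0.864% and 0.856% (-0.01, interval -0.04 to 0.01), and in lymphoid nuclei 0.897% and 0.890% (-0.01, interval -0.04 to 0.02). These intervals cover counting error only and were computed on counts divided by 2, since accessibility counts were mostly even. Single nuclei gave the same order: the median share was 0.729% and 0.714% of a nucleus's counts in tumour nuclei, 0.865% and 0.850% in myeloid nuclei, and 0.912% and 0.887% in lymphoid nuclei. The rest of chromosome 17 stood at a log2 ratio of -0.001 in tumour, -0.06 in myeloid and -0.04 in lymphoid nuclei.

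Region by region, the locus differed little between the genotypes. A region was compared where both libraries together held at least 50 counts in the class, and counted as higher or lower when CPM, after adding 0.5 counts, differed at least 1.5-fold. In tumour nuclei 9 of 502 regions were higher in Sun1_KO and 20 lower, where the background over all regions of the genome was 8.16% higher and 5.4% lower. The locus thus had 1.79% of its regions higher, below the genome, and 3.98% lower. With each nucleus counted at most once per region the balance turned, to 13 higher and 10 lower of 491, where 7.99% and 2.85% of the genome's regions were. In myeloid nuclei 18 of 320 regions were higher and 8 lower, against a background of 4.69% and 7.85%. In lymphoid nuclei 12 of 255 were higher and 15 lower, against 4.96% and 9.7%. Scaling by the median ratio of all regions gave 23 higher and 6 lower in myeloid nuclei (genome 5.96% and 6.41%) and 14 higher and 10 lower in lymphoid nuclei (genome 5.96% and 8.27%). The median log2 ratio over the compared regions was -0.006 in tumour, 0.015 in myeloid and -0.023 in lymphoid nuclei, beside 0.025, -0.058 and -0.046 over the genome.

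**Figure D1:**
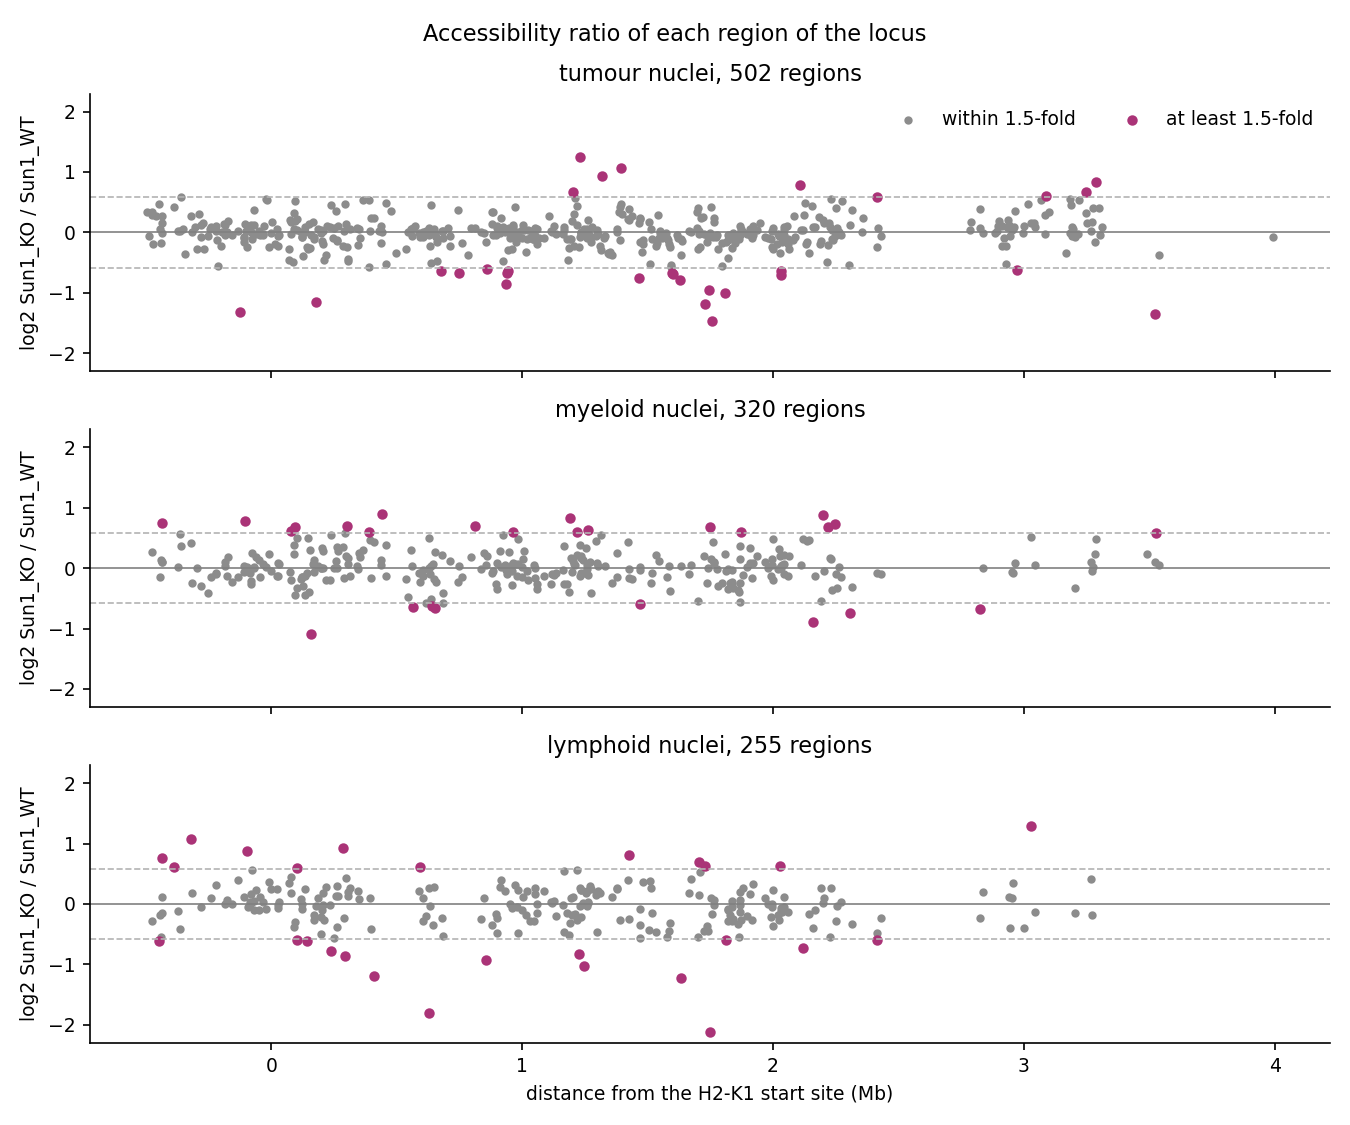
Log2 ratio of Sun1_KO over Sun1_WT accessibility (vertical axis) of each compared region against the distance of its centre from the H2-K1 start site in Mb (horizontal axis), with 1 panel per class. Purple points are at least 1.5-fold apart (dashed lines), 29 of 502 in tumour, 26 of 320 in myeloid and 27 of 255 in lymphoid nuclei, and a group of low points in tumour nuclei lies near 1.7 Mb, between Ddr1 and Ier3.

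The regions past 1.5-fold held few counts. In tumour nuclei the 20 lower regions had a median of 490 summed counts and the 9 higher ones 171, while the 473 others had 1549. The interval left out 0 for 19 of the 20 lower and 6 of the 9 higher regions. In myeloid nuclei it left out 0 for 4 of 18 higher and 2 of 8 lower regions, and in lymphoid nuclei for 4 of 12 and 8 of 15, so that most of these differences were within counting error. Regions past 1.5-fold in both of a pair of classes were rare in the locus and in the genome. In tumour and myeloid nuclei 0 of 318 regions were past it the same way and 0 opposite ways, where 0.810% and 0.749% of the genome's regions were. In tumour and lymphoid nuclei it was 0 and 2 of 255 (genome 0.740% and 0.881%), and in myeloid and lymphoid nuclei 0 and 1 of 232 (genome 1.22% and 0.705%). Among promoter regions in tumour nuclei 1 of 111 was higher and 1 lower, where 4.32% and 2.01% of the genome's were. Among regions without a promoter 8 of 391 were higher and 19 lower, against 8.58% and 5.77%. In myeloid nuclei 0 of 95 promoter regions were higher and 1 lower (genome 1.19% and 2.65%), and 18 of 225 others were higher and 7 lower (5.64% and 9.27%). In lymphoid nuclei 4 of 92 promoter regions were higher and 2 lower (1.9% and 3.41%), and 8 of 163 others were higher and 13 lower (6.28% and 12.4%).

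Both classical class I genes were within 1.5-fold between the genotypes in every class. The single region of H2-K1 held 58.4 CPM in Sun1_WT and 57.7 in Sun1_KO tumour nuclei, 79.0 and 76.3 in myeloid nuclei and 72.1 and 85.6 in lymphoid nuclei. Its log2 ratios were -0.02 (interval -0.08 to 0.05), -0.05 (-0.28 to 0.18) and 0.25 (-0.08 to 0.58). The 2 regions of H2-D1 held 170 and 173 CPM in tumour nuclei (log2 ratio 0.02, interval -0.01 to 0.06), 206 and 196 in myeloid nuclei and 254 and 258 in lymphoid nuclei. The RNA of H2-D1 went another way than its accessibility, with 4820 CPM in tumour nuclei of Sun1_WT and 3346 in those of Sun1_KO (log2 ratio -0.53, interval -0.54 to -0.51), and a ratio of -0.57 in myeloid nuclei. H2-K1 RNA was 1914 and 1841 CPM in tumour nuclei (log2 ratio -0.06).

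Among the 16 non-classical class I genes, 14 had enough counts in tumour nuclei and 1, H2-T23, passed 1.5-fold, against a background over all genes of 4.14% higher and 2.11% lower. H2-T23 encodes a class I molecule that inhibitory receptors of natural killer cells and T cells recognise. Over its 3 regions, Sun1_WT tumour nuclei held 21.3 and Sun1_KO tumour nuclei 13.8 CPM, a log2 ratio of -0.63 (interval -0.75 to -0.50). Its promoter region, from 36032249 to 36033040 and overlapping the sequence shown above, held 1968 counts in Sun1_WT and 872 in Sun1_KO, which was 12.9 and 7.91 CPM (log2 ratio -0.70, interval -0.87 to -0.54). The other two regions, inside the gene, stood at -0.64 (interval -0.90 to -0.38) and -0.34 (-0.65 to -0.05).

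In the immune classes H2-T23 was within 1.5-fold, and the difference between the classes was not tested. Over the gene, myeloid nuclei held 79.4 and 80.7 CPM and lymphoid nuclei 80.9 and 79.3, with log2 ratios of 0.02 (interval -0.20 to 0.25) and -0.03 (-0.35 to 0.29). Tumour nuclei of both genotypes therefore stood below both immune classes at this gene, and those of Sun1_KO lowest. H2-T23 RNA was 54.5 and 18.4 CPM in tumour nuclei (log2 ratio -1.57, interval -1.73 to -1.41), 420 and 372 in myeloid nuclei (-0.17) and 233 and 163 in lymphoid nuclei (-0.51, interval -0.94 to -0.08). In the same tumour nuclei the summed RNA of myeloid markers was 105 and 127 CPM, of lymphoid markers 13.4 and 24.8 and of fibroblast markers 1403 and 1205, and the part of other cells in the H2-T23 values was not tested. When each nucleus counted at most once per region, the promoter ratio was -0.49, short of 1.5-fold, and no listed gene was lower in tumour nuclei. H2-T22, whose promoter holds the same response element, had 86.9 and 85.3 CPM in tumour nuclei (log2 ratio -0.03).

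Of the other non-classical genes, H2-K2 was open in the immune classes and nearly closed in tumour nuclei, at 1.78 and 2.61 CPM in tumour nuclei (log2 ratio 0.55, interval 0.20 to 0.90) against 67.7 and 68.4 in myeloid and 71.8 and 68.1 in lymphoid nuclei. H2-Q10 was highest in lymphoid nuclei, at 79.8 and 65.8 CPM against 9.34 and 9.36 in tumour and 16.2 and 14.7 in myeloid nuclei. H2-Q6 stood at 6.67 and 8.40 in tumour nuclei (log2 ratio 0.33, interval 0.15 to 0.52), and its promoter region in lymphoid nuclei at 16.3 and 28.7 (0.81, interval 0.17 to 1.5). At H2-K2 both immune classes stood above tumour nuclei in both libraries, and at H2-Q10 lymphoid nuclei stood above the other classes in both.

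Most class II genes were more open in myeloid than in tumour nuclei. Of 9 genes, 8 were at least 2-fold lower in tumour than in myeloid nuclei in both libraries, where 14.2% of all genes were, and 5 at least 2-fold higher in myeloid than in lymphoid nuclei, where 11.0% of all genes were. None of the classical class I or antigen processing genes was 2-fold apart between tumour and myeloid nuclei. H2-Ab1, a class II beta chain, held 4.60 and 4.31 CPM in tumour, 44.5 and 47.0 in myeloid and 42.1 and 37.1 in lymphoid nuclei, so tumour nuclei had 10.3% and 9.16% of the myeloid level. H2-Eb2 was the most closed in tumour nuclei, at 1.38% and 1.40% of the myeloid level. Its value rests on 1 region, from 34340742 to 34341615, which does not hold its promoter and had 45 and 34 counts in tumour nuclei. H2-Eb2 RNA came to 0 and 1 UMI in myeloid nuclei. H2-Aa, the class II alpha chain, had 44.9% of the myeloid level in Sun1_WT and 30.0% in Sun1_KO tumour nuclei. The one gene within 2-fold was H2-DMa, at 78.2% and 85.3%, a sum that includes regions shared with the general gene Brd2. Its own promoter region was more than 2-fold lower in tumour nuclei, at 6.07 and 4.61 CPM against 18.7 and 15.2 in myeloid nuclei.

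Between the genotypes, class II accessibility was within 1.5-fold in all 9 genes in tumour nuclei and in all 9 in myeloid nuclei, where 4.14% and 1.58% of all genes were higher and 2.11% and 3.56% lower. In lymphoid nuclei 1 of 7 genes, H2-Aa, was higher and 2, H2-Ob and H2-DMb2, were lower, where 1.68% and 4.92% of all genes were, and each of these 3 intervals crossed 0. Over whole genes H2-Eb1 was the lowest in tumour nuclei, at 21.2 CPM in Sun1_WT and 16.7 in Sun1_KO (log2 ratio -0.34, interval -0.46 to -0.22). Its promoter region was at -0.45. H2-DMa, whose value includes regions shared with Brd2, was at -0.04, and its own promoter region at 6.07 and 4.61 CPM (-0.40, interval -0.62 to -0.17). H2-Aa stood at 12 and 10.3 in tumour nuclei (-0.23, interval -0.38 to -0.07) and at 26.8 and 34.3 in myeloid nuclei (0.35, interval -0.02 to 0.73). The 2 genes of the modulator H2-O, which restrains peptide loading, stood above 0 in tumour nuclei, short of 1.5-fold, H2-Oa at 0.37 (interval 0.17 to 0.57) and H2-Ob at 0.30 (0.06 to 0.54).

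At H2-DMb1 and the transactivator Ciita, RNA was further apart between the genotypes than accessibility. H2-DMb1, a chain of the H2-DM exchange factor, had 12.6 RNA CPM in Sun1_WT and 4.80 in Sun1_KO tumour nuclei, a log2 ratio of -1.39 (interval -1.72 to -1.08), while its accessibility ratio was -0.17. In myeloid nuclei its RNA was 230 and 360 (0.65, interval 0.46 to 0.84) and its accessibility ratio -0.10. That accessibility ratio sums regions with ratios of opposite sign. A region inside the gene, from 34158750 to 34159617, was at 11.6 and 5.40 CPM (-1.09, interval -1.91 to -0.34). The promoter region, from 34152642 to 34153578, was at 17.96 and 22.23 CPM (0.31, interval -0.15 to 0.77). H2-DMa RNA went the other way than H2-DMb1 RNA in myeloid nuclei, at 314 and 203 CPM (-0.63, interval -0.83 to -0.42), and was 19.4 and 19.6 in tumour nuclei (0.01). Ciita RNA was 4.85 and 1.99 in tumour nuclei (-1.27, interval -1.81 to -0.79) and 128 and 217 in myeloid nuclei (0.76, interval 0.51 to 1.01). The accessibility of Ciita, which lies outside the locus, stood at -0.33 (interval -0.43 to -0.24) in tumour nuclei and 0.11 in myeloid nuclei. In lymphoid nuclei H2-Aa RNA came to 3 UMIs in Sun1_WT and 17 in Sun1_KO (log2 ratio 1.78, interval 0.17 to 4.37), beside 20 and 59 accessibility counts at its promoter (0.93, interval -0.13 to 2.15). Lymphoid nuclei carried 643 and 559 CPM of myeloid marker RNA, with 15 of the 18 markers detected in Sun1_WT (Csf1r, Adgre1 and Fcgr1 at 0) and 16 in Sun1_KO. Among these markers, C1qa had 7 and 29 UMIs (log2 ratio 1.43, interval 0.28 to 2.94), and the part of myeloid RNA in the H2-Aa values was not tested.

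**Figure D2:**
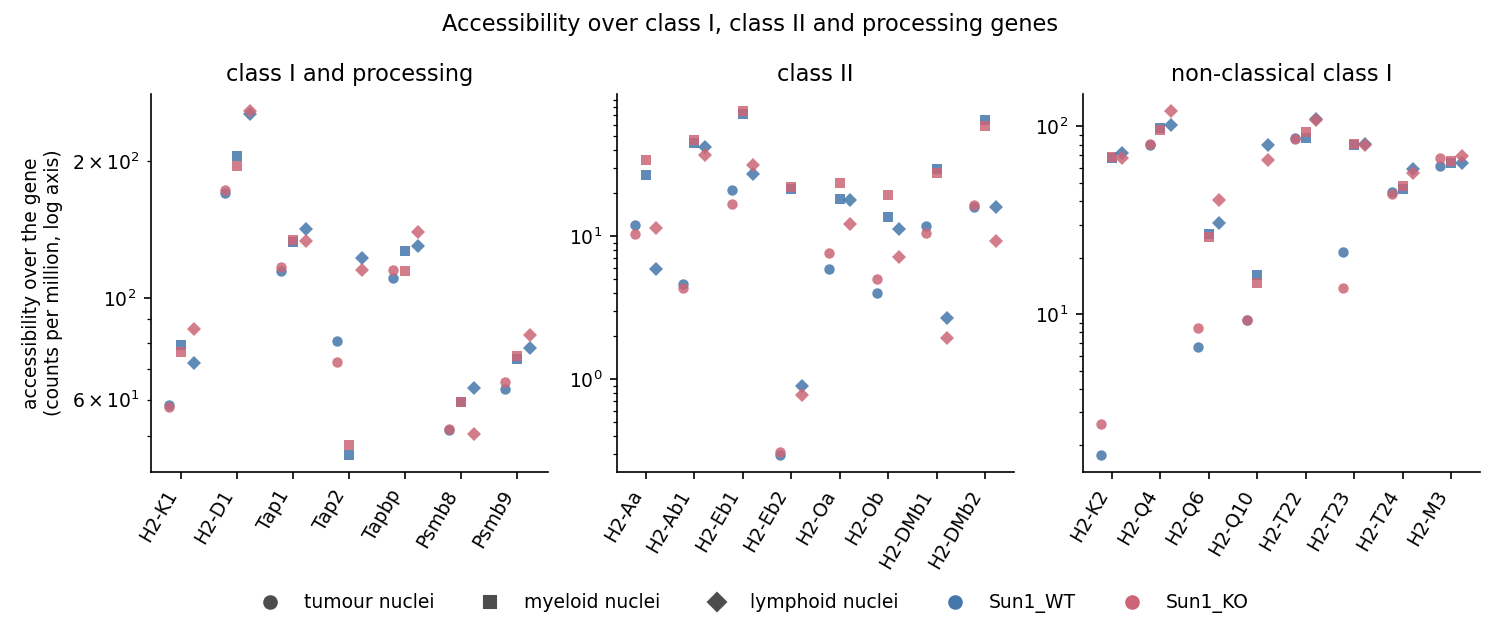
Accessibility summed over the regions of each gene (vertical axis, CPM, log axis) for class I and antigen processing genes, 8 class II genes and 8 non-classical class I genes (horizontal axis), with circles, squares and diamonds for tumour, myeloid and lymphoid nuclei and blue and red for Sun1_WT and Sun1_KO. The class II genes spread widely between classes. H2-Eb2, measured in 1 region without its promoter, stood at about 1.4% of the myeloid level in tumour nuclei. The circles of H2-T23 show the genotypes apart in tumour nuclei (21.3 and 13.8).

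The antigen processing genes were open in all classes, and none of the 5 passed 1.5-fold in any. Tap1 and Psmb9 start from 1 shared promoter region, and the genes Tap1, Psmb8 and Psmb9 share regions, so their accessibility values are not separate. The region of Psmb9, an immunoproteasome subunit, held 63.4 and 65.7 CPM in tumour nuclei (log2 ratio 0.05, interval -0.01 to 0.11). Tap2, a chain of the peptide transporter, was at 80.6 and 72.5 (-0.15, interval -0.21 to -0.10) in tumour nuclei, above the 45.4 and 47.7 of myeloid nuclei. Psmb9 RNA was 189 and 110 CPM in tumour nuclei (-0.77, interval -0.84 to -0.71) and Psmb8 RNA 280 and 185 (-0.60), while Tap1 RNA was 199 and 245 (0.30, interval 0.24 to 0.35) from the same shared promoter region as Psmb9. The RNA of the class I transactivator Nlrc5 was 162 and 271 (0.74, interval 0.69 to 0.79), with an accessibility ratio of 0.06.

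In the class III region, Tnf, which encodes the tumour necrosis factor, had a promoter region from 35201733 to 35202561 with 0.806 and 1.28 CPM in tumour nuclei (log2 ratio 0.67, interval 0.15 to 1.18) against 39.2 and 42.5 in myeloid and 25.5 and 27.7 in lymphoid nuclei. Tumour nuclei of both genotypes held little of it, and those of Sun1_KO also carried more immune marker RNA, as given above, whose part was not tested. A region inside Nfkbil1, from 35230729 to 35231454, went the same way, with 47 and 81 counts in tumour nuclei (1.25, interval 0.49 to 2.05), and was among the 5 first-ranked lymphoid-high regions, at 37.4 and 45.2 CPM in lymphoid nuclei. Of the 9 class III genes on the list with enough counts none passed 1.5-fold in tumour nuclei, and C4a alone, a complement gene with 24 and 36 counts, passed it in myeloid nuclei (0.70, interval -0.43 to 1.89), against a background of 1.58%. All 38 general genes were within 1.5-fold in tumour and myeloid nuclei where they had enough counts, and in lymphoid nuclei Pbx2, a homeodomain factor gene, was at 26.7 and 40.7 (0.61, interval 0.09 to 1.15).

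Over all listed genes of the window, 0 of 77 were higher and 1 lower in accessibility in tumour nuclei, 1 of 70 higher and 0 lower in myeloid nuclei (background 1.58% and 3.56%), and 2 of 66 higher and 4 lower in lymphoid nuclei, where the background was 1.68% and 4.92%. The 4 lower ones in lymphoid nuclei were H2-T10, H2-Ob, H2-DMb2 and Cfb, each with an interval that crossed 0. RNA of the same lists differed more often. In tumour nuclei 10 of 68 genes were higher in Sun1_KO and 10 lower, against a background of 17.9% and 10.7% of all genes, whose median log2 ratio was 0.16. With TMM scaling the split was 5 higher and 13 lower, against 10.9% and 17.9% of all genes. In myeloid nuclei 5 of 60 were higher and 6 lower (2 and 7 with TMM scaling, against 8.88% and 11.1% of all genes), against 11.5% and 9%, and in lymphoid nuclei 13 of 47 were higher and 1 lower, against 15.1% and 10.4%. The heat shock gene Hspa1b was higher in all classes, at log2 ratios of 0.94, 1.18 and 1.14 in tumour, myeloid and lymphoid nuclei, with accessibility ratios of -0.28, -0.04 and -0.07. Rps18, a ribosomal protein gene, was lower in all, at -1.13, -0.81 and -0.75, with accessibility ratios of -0.02, -0.05 and 0.04. These RNA differences went with the higher mitochondrial shares of Sun1_KO given above, whose part was not tested.

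**Figure D3:**
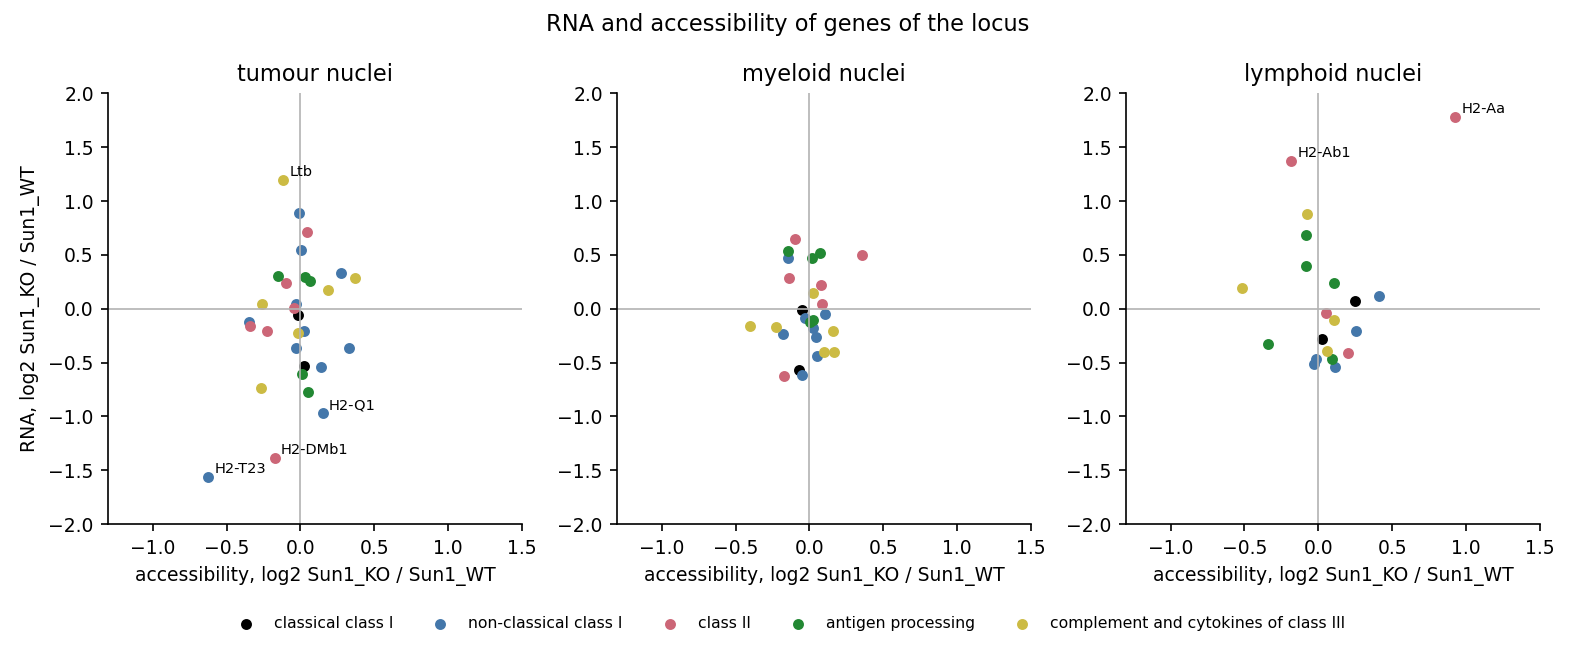
Log2 ratio of Sun1_KO over Sun1_WT in RNA (vertical axis) against accessibility (horizontal axis) for the class I, class II, antigen processing and class III genes with enough counts in both, with 1 panel per class and colours for the gene lists. Genes spread more along the RNA axis than along the accessibility axis, and H2-T23 in tumour nuclei (-0.63 in accessibility and -1.57 in RNA) and H2-Aa in lymphoid nuclei (0.93 and 1.78) lie away from 0 on both.

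Ranked by the interval bound nearest 0, the lowest ratios in tumour nuclei lay in a stretch of 117 kb between Ddr1, a collagen receptor gene, and Ier3, an immediate early gene, which was singled out after its values were seen. The first 4 of the 6 lowest-ranked regions lay in it. The region from 35758534 to 35759461 held 663 counts in Sun1_WT and 172 in Sun1_KO, or 4.34 and 1.56 CPM (log2 ratio -1.47, interval -1.84 to -1.13). The region from 35731099 to 35731906 held 3.78 and 1.65 (-1.19, interval -1.55 to -0.85). The other two started at 35807710 (2.40 and 1.20, ratio -1, interval -1.43 to -0.59) and 35743909 (2.70 and 1.39, ratio -0.96, interval -1.36 to -0.57). All 4 lay outside genes, from 12989 to 27603 bp from the nearest annotated start.

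These 4 were weak regions of the stretch. Its 23 regions with a peak in both libraries summed to 194 and 172 CPM in tumour nuclei (log2 ratio -0.17, interval -0.21 to -0.13), a sum that includes the 4 regions for which the stretch was singled out, and the strongest, starting at 35813024, held 50.7 and 45.4 (-0.16). The stretch also held regions with a Sun1_WT peak only, starting at 35721437, 35732153, 35782168 and 35787848. They had 103, 173, 276 and 99 counts in Sun1_WT tumour nuclei and are left out of the sums of the stretch, since no ratio could be formed. In myeloid nuclei the stretch stood at 292 and 303 (0.06, interval -0.06 to 0.17) and in lymphoid nuclei at 237 and 210 (-0.17, interval -0.36 to 0.02). Lymphoid nuclei had their lowest ratio here too, in another region, from 35749303 to 35750202, with 58 and 20 counts (-2.12, interval -3.35 to -1.07), which in tumour nuclei held 0.387 and 0.381 CPM. Ier3 RNA was 42.5 and 25.7 CPM in tumour nuclei (-0.72, interval -0.87 to -0.58) and 208 and 125 in myeloid nuclei (-0.74), while accessibility over the gene, whose regions include one shared with Flot1, was at -0.08 in tumour and -0.17 in myeloid nuclei. Ddr1 RNA was 19.8 and 20.1 in tumour nuclei (0.02).

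**Figure D4:**
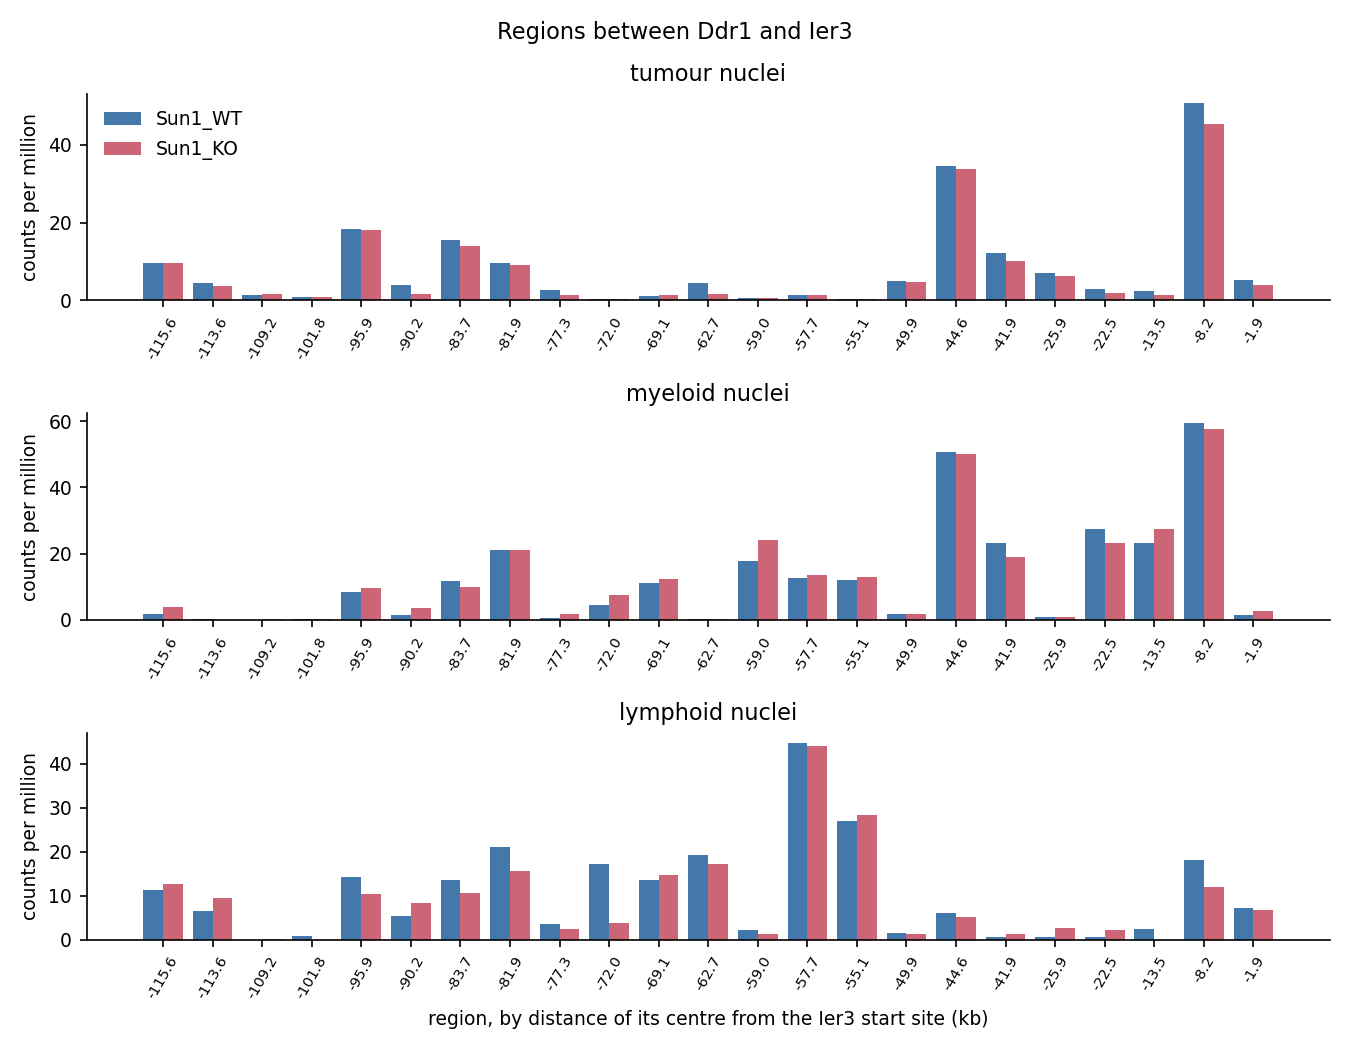
Accessibility (vertical axis, CPM) of the 23 regions between Ddr1 and Ier3 with a peak in both libraries, in Sun1_WT (blue bars) and Sun1_KO (red bars), ordered by the distance of their centres from the Ier3 start site in kb (horizontal axis), with 1 panel per class. Regions with a Sun1_WT peak only are not shown. Bars of both genotypes are close in the strong regions (50.7 and 45.4 at the region second from the right in tumour nuclei), and the low ratios in tumour nuclei sit in weak ones such as 4.34 and 1.56.

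Outside this stretch, the region from 33874062 to 33874927 was at -1.32 (interval -2.16 to -0.57) in tumour nuclei with 129 and 37 counts, and its Sun1_KO peak was narrower than the Sun1_WT one by 0.92 on the log2 scale, which lowers its count by construction. Among the higher tumour regions, one from 37246391 to 37247303, 14023 bp from the olfactory receptor gene Olfr97, held 809 and 933 counts (0.67, interval 0.48 to 0.87), and one near H2-Q2, starting at 35318811, held 121 and 167 (0.93, interval 0.44 to 1.44) with a wider Sun1_KO peak. By windows of 500 kb, tumour log2 ratios ran from -0.13 to 0.15. The window from 35.5 Mb, which holds the stretch above, was at -0.09 (interval -0.11 to -0.08). The window from 37 Mb, which holds H2-M3, Gabbr1 and Zfp57 besides olfactory receptor genes, was at 0.15 (interval 0.12 to 0.18). H2-M3 held 61.6 and 67.9 of its 237 and 263 CPM.

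In lymphoid nuclei the region inside Ddx39b from 35245656 to 35246563 was at 21.1 and 10.3 CPM (-1.03, interval -1.82 to -0.27), and a Ppt2 promoter region from 34628340 at 12.5 and 3.49 (-1.81, interval -3.14 to -0.65). A region near Mog, from 37028386 to 37029317, stood at 5.04 and 12.6 (1.29, interval 0.20 to 2.61), on 17 and 65 counts. Tumour nuclei held 33.9 and 37.7 CPM of this region, and their part in the lymphoid values was not tested. In myeloid nuclei a region near Ltb, the lymphotoxin beta gene, from 35189834 to 35190643, was at 7.68 and 13.6 (0.82, interval 0.17 to 1.5), and one near Fkbpl, from 34640653 to 34641559, at 33.2 and 21.5 (-0.63, interval -1.04 to -0.23). A region 4084 bp before H2-Eb1, from 34300878 to 34301783, was at 8.86 and 14.4 (0.70, interval 0.08 to 1.34). Between H2-Aa and H2-Eb1, the region from 34293299 to 34294194 was lower in lymphoid nuclei (22.5 and 12.4, ratio -0.86, interval -1.59 to -0.14) and stood at 22.6 and 33.7 in myeloid nuclei (0.58, interval 0.19 to 0.97).

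Differences between classes were larger than those between genotypes. At least 2-fold in both libraries, 119 of 501 regions were higher in tumour than in myeloid nuclei and 113 lower, where the background was 44.5% and 16.6% of all regions. Against lymphoid nuclei 103 of 487 were higher in tumour nuclei and 81 lower (background 41.9% and 13.1%), and 56 of 300 were higher in myeloid than in lymphoid nuclei and 34 lower (background 30% and 13.9%). The locus thus had fewer tumour-high regions than the genome, 23.8% against myeloid nuclei. Peaks were called over each whole library, in which tumour nuclei supplied most counts. Between tumour and myeloid nuclei 30.4% of 112 promoter regions and 50.9% of 389 other regions were apart, beside 28.5% and 64.7% over the genome.

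**Figure D5:**
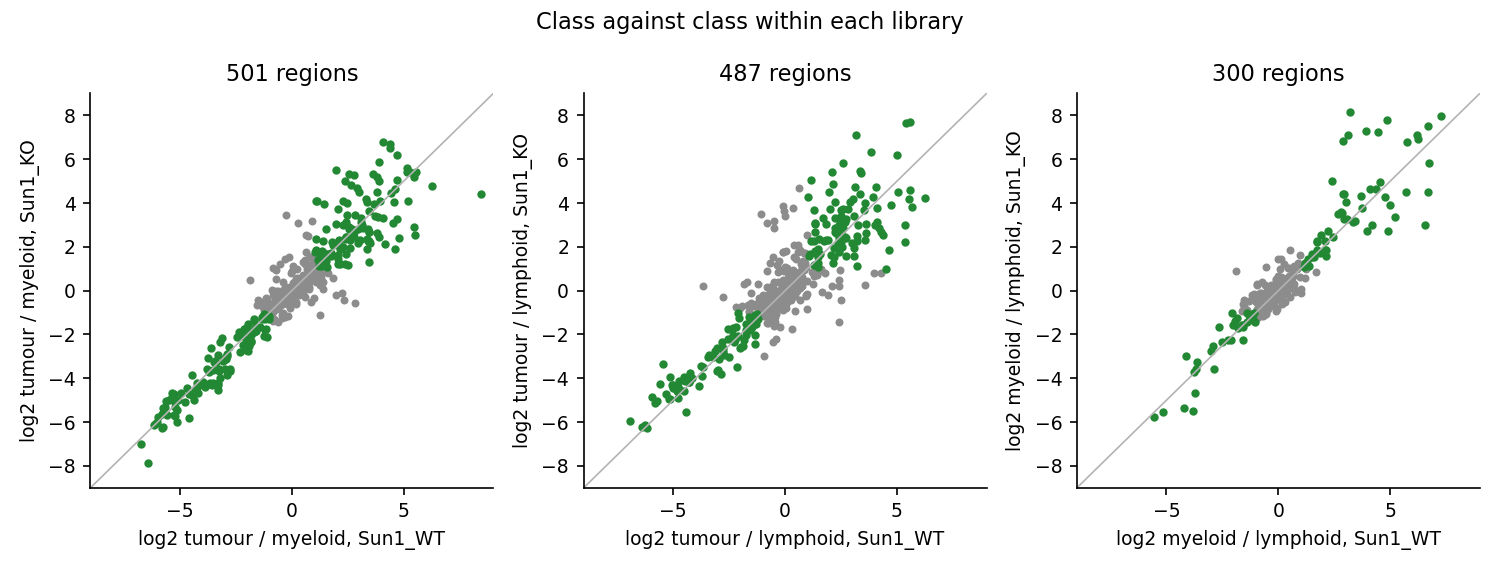
Log2 ratio between 2 classes of nuclei in the Sun1_KO library (vertical axis) against the same ratio in the Sun1_WT library (horizontal axis) for each region, with 1 panel per pair of classes. Green points are at least 2-fold apart in the same direction in both libraries (119 and 113 of 501 for tumour over myeloid) and, where lower in tumour nuclei, lie close to the diagonal.

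High against both other classes were 73 of 487 compared regions in tumour, 46 of 300 in myeloid and 20 of 291 in lymphoid nuclei. Over the genome, 36367, 9365 and 4421 such regions were also compared between the genotypes. Regions of the genome compared between tumour and lymphoid nuclei numbered 109867, and those compared between myeloid and lymphoid nuclei 41133. The 113805 regions with a peak in both libraries were not all compared between classes. They give no share to set beside those of the locus. The window from 34 to 34.5 Mb, which holds the class II genes, had 18 of the 46 myeloid-high regions, 5 of the 20 lymphoid-high ones and 0 of the 73 tumour-high ones, out of 76 regions. The promoters of H2-DMa, H2-DMb1, H2-Aa and H2-Eb1 were among the 6 promoter regions that were myeloid-high. Regions were ranked by the smallest of their 4 log2 ratios, against each other class in each library. The first tumour-high region lay inside Cdsn, the gene of the skin protein corneodesmosin, from 35550791 to 35551535, with 18.9 and 19.2 CPM in tumour nuclei against 0.473 and 0.386 in myeloid nuclei, and a further one of the top 5, from 35549244 to 35550184, in the same gene. The first myeloid-high region by that rank, which had no count in lymphoid nuclei of either library, lay at the promoter of Olfr110, an olfactory receptor gene, from 37491705 to 37492635, with 15.1 and 17.7 CPM in myeloid and 0.138 and 0.136 in tumour nuclei. The first lymphoid-high one held the promoter of Pou5f1, from 35507635 to 35508599, with 24.9 and 18.4 in lymphoid and 0.937 and 1.05 in tumour nuclei. Of these class-high regions, 5 of 73 were past 1.5-fold between the genotypes in tumour nuclei, 2 of 46 in myeloid nuclei and 1 of 20 in lymphoid nuclei, where 13.7%, 5.57% and 10.2% of the genome's regions high in the same class were.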

How the data were processed

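Nuclei of each tumour gave paired RNA and accessibility libraries. The deposited tables are raw counts, UMIs per gene and nucleus and counts per peak and nucleus, which the authors made against mm10. Tools listed in the submitters' processing notes are Signac, Seurat, Cell Ranger ARC, Cell Ranger and FastQC, without versions. Peak coordinates differ between the libraries, each of which has its own peak list, and are given as deposited. Files held 3455 Sun1_WT and 2404 Sun1_KO nuclei with 53707675 and 35471291 UMIs and 227006096 and 183750142 accessibility counts. Of the accessibility values, 75.5% and 75.0% were even.

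Nuclei needed 500 UMIs or more and 300 genes or more, with mitochondrial UMIs of 20% or less, and doublets were not called. Genotypes shared 10 barcodes. A nucleus entered a class with at least 3 different markers and at least 10 (tumour), 40 (myeloid) or 20 (lymphoid) marker UMIs per 10000, with other classes' markers below 5 (tumour gate), below 5 for tumour and 10 for lymphoid (myeloid gate), or below 5 for tumour and 20 for myeloid (lymphoid gate). These minimums were set after seeing the distributions. Ungated were 1115 Sun1_WT and 642 Sun1_KO nuclei. Accessibility took classes by barcode.

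Counts were summed per class and genotype, and divided by the class total (RNA without mitochondrial genes). Ratios are log2 after adding 0.5 counts, for at least 50 accessibility counts or 20 UMIs, with exact conditional binomial 95% intervals, which cover counting error only. A gene's accessibility is the sum over regions within 1 kb of it. Genes and promoters come from RefSeq (GRCm38.p6), and 80 of 81 listed locus genes lie in the window. H2-K2 and H2-T10 were not used in RNA. For each class, up to 6 regions per direction past 1.5-fold, ranked by the interval bound nearest 0, could be named, with 5 per class for class differences and any listed gene. The members and lists were chosen with earlier results of these data known. The method was run on simulated even counts that held only the counting error the intervals assume. That run could not show how the intervals perform with spread between nuclei or libraries. Alternatives were a stricter gate, 1500 UMIs, binarised counts, other scalings, minimums, pseudocount and overlap. The work used Python 3.11.15, numpy 2.4.6, pandas 2.3.3, scipy 1.17.1 and matplotlib 3.10.9, with TMM factors from edgeR 4.0.16 in R 4.3.3.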

Additional observations from a re-analysis of the deposited data

Results flagged for a closer look

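The window also held 70 Sun1_KO peaks that overlap no Sun1_WT peak and so fall outside the rule. They carried 12355 counts in Sun1_KO tumour nuclei, or 112 CPM, with 404 CPM in myeloid and 309 in lymphoid nuclei. The 32 Sun1_WT peaks without a Sun1_KO peak carried 58.0, 80.7 and 67.9 CPM in the same classes of Sun1_WT. No ratio can be formed for either set, since the other library has no count for them. Peaks without a partner were also found over the genome, and more of them in Sun1_KO. The genome held 113805 regions with a peak in both libraries, from 127147 Sun1_WT and 134365 Sun1_KO peaks. In the locus 504 peaks of each library had a partner, beside the 32 Sun1_WT and 70 Sun1_KO peaks without one. Taking each shared region as 1 peak per library, peaks without a partner were a smaller part of the locus than of the genome. This held in both libraries, and no test was run.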

How the results depend on the processing

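No paired analysis was possible because each genotype has 1 library per assay. Of the summary values recomputed under the alternatives, 181 stayed close to the reported value and 44 moved. Of the values for named regions and genes, 301 stayed close and 5 moved. No ratio past its threshold changed sign. With each nucleus counted at most once per region, the locus ratio in tumour nuclei was -0.061, its median -0.027, and 13 regions were higher and 10 lower of 491 (genome 7.99% and 2.85%). In myeloid nuclei there were then 4 higher and 3 lower of 258 (genome 1.53% and 3.36%) with a median of -0.038, in lymphoid nuclei 1 and 5 of 180 (1.03% and 2.51%), and 18 regions were lower in myeloid than lymphoid nuclei. Listed genes past 1.5-fold in accessibility came to 0 in that setting, lower in tumour, higher in myeloid and either way in lymphoid nuclei. With a minimum of 200 counts, 4 of 448 tumour regions were higher (genome 6.75%), myeloid counts were 2 higher and 1 lower of 189 (0.938% and 2.04%), lymphoid counts 2 and 2 of 128 (0.968% and 1.79%), 46 regions were lower in tumour than lymphoid nuclei, and 16 were higher and 5 lower in myeloid than lymphoid nuclei. With a minimum of 20, counts were 33 higher and 22 lower of 394 in myeloid (8.41% and 13.0%) and 29 and 37 of 330 in lymphoid nuclei (9.39% and 16.8%). With no minimum they were 67 and 62 of 501 (19.2% and 25.9%), and 73 and 116 of 494 (22.7% and 34.3%), with 68 regions lower in myeloid than lymphoid nuclei. Among regions with peak widths within 10%, chosen after seeing the data, 5 of 473 were higher in tumour nuclei (genome 7.72%). Adding 5 counts left 5 of 320 regions lower in myeloid nuclei (genome 6.27%) and 6 of 255 higher in lymphoid nuclei (3.06%). It also left 62 regions higher in tumour than lymphoid nuclei and 7 listed genes higher in lymphoid RNA. Median-ratio scaling moved the median to -0.031 in tumour and 0.073 in myeloid nuclei. TMM scaling left 5 of 68 listed genes higher in tumour RNA (10.9% of all genes), 2 of 60 higher in myeloid RNA (8.88%) and 2 of 47 lower in lymphoid RNA (12.9%). The stricter gate gave 0 listed genes higher in myeloid accessibility and 2 lower in lymphoid RNA. With 1500 UMIs or more, 1 was higher in lymphoid accessibility, and with mitochondrial UMIs in the total, 3 were lower in lymphoid RNA. Counts between classes, and of listed genes in settings other than TMM, are given here without a genome share. They show only how far a count moved with the setting. Counts are limited most by depth in lymphoid nuclei, where 249 of 504 regions were not compared, against 184 in myeloid and 2 in tumour nuclei.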
